A study of Homo sapiens with 6 samples.

Results

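The lysyl oxidases and lysyl hydroxylases are the enzymes that prepare collagen for cross-linking. They are described here in MDA-MB-231 cells, an established triple-negative breast cancer line, after depletion of the zinc finger transcription factor ZNF148. The group holds 8 genes: the 5 oxidases LOX, LOXL1, LOXL2, LOXL3 and LOXL4, and the 3 hydroxylases PLOD1, PLOD2 and PLOD3. They were found by their symbols among the 24108 rows of the expression table, and take up 9 rows. LOXL1 has 2 rows, and PLOD1 appears only in a row joined with MFN2. The group was chosen by the FPKM values of LOX, which was already known to be lower in these shZNF148 samples. The differences of its members are therefore a description, given with errors and without p-values. The question was whether the lower level of LOX is shared by its relatives and by the hydroxylases.

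The 6 RNA-seq samples were 3 replicates of MDA-MB-231 cells carrying a hairpin against luciferase (shCtr) and 3 replicates carrying a hairpin against ZNF148 (shZNF148). Both groups were infected with lentivirus for 48 h and then kept in 0.5 µg/mL puromycin for 24 h. A single hairpin stood for each group, so effects of the hairpin or its virus preparation and effects of ZNF148 loss cannot be told apart. The sources do not say that the replicates were separate cultures, so the p-values given for other genes measure only the spread between these samples, which may be technical. Values are FPKM, fragments scaled to transcript length and to the mapped total, so that levels can be compared between genes.

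Lysyl oxidases are copper-dependent enzymes, secreted into the matrix, that oxidize the side chains of lysine and hydroxylysine in collagen and elastin. The aldehydes they leave behind join neighbouring chains and stiffen the matrix. Lysyl hydroxylases act earlier, inside the endoplasmic reticulum, where they add a hydroxyl group to collagen lysines before the chains fold, and the choice between lysine and hydroxylysine sets which cross-links can form later. LOX, LOXL2 and PLOD2 are widely studied in breast cancer for their place in matrix stiffening and spread.

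The targeted gene was examined first. ZNF148 was 3.72, 4.36 and 4.30 FPKM in shCtr replicates 1, 2 and 3, and 0.914, 0.282 and 0.834 FPKM in shZNF148 replicates 1, 2 and 3. Its mean level in shZNF148 was 16.4% of that in shCtr (log2 difference -1.63, SE 0.18, limma adjusted p = 0.0099), and the groups did not overlap. Replicate 2 held the lowest level of the 3 shZNF148 samples. The target listed for the hairpin is shown because its letters were also looked for in the members. The capitals mark the 7 bases that pair with bases 2 to 8 of a guide strand complementary to it, the seed.
shZNF148 target: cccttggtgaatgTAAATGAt
The whole 21-base target occurred 1 time in the canonical ZNF148 transcript of GENCODE 44 and 0 times in those of the 8 members, where the closest stretch had 7 to 10 mismatches. The 7-base word TAAATGA occurred 2 times in the 3′ UTR of LOX (3548 bases, the longest of the group), 1 time in that of PLOD2 (1277 bases) and 0 times in the other 6 members. It was present in the 3′ UTR of 20.4% of 19550 canonical coding transcripts of all lengths. Such a match is a description of letters, and its part in the levels of LOX and PLOD2 was not tested.

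The cell line's own markers were checked in all 6 samples. VIM, CD44, AXL, MSN and CAV1, genes of mesenchymal-like breast cancer cells, summed to 3103 to 3225 FPKM in shCtr and to 2595 to 2682 FPKM in shZNF148. ESR1, the estrogen receptor gene, was listed at 0 in all samples, PGR and CDH1 were below 1 FPKM, and EPCAM averaged 10.6 and 9.04 FPKM. A joined row of ERBB2 and MIR4728 held 126 and 125 FPKM in replicate 2 of shCtr and of shZNF148 and 20.1 to 24.8 FPKM in the other 4 samples. Fibroblasts are another source of lysyl oxidases. The 7 fibroblast markers summed to 14.8 to 25.4 FPKM in shCtr and to 18.8 to 23.0 FPKM in shZNF148, and none was at 0 in every sample. Of these markers, COL1A1, COL1A2 and COL3A1 are also substrates and DCN a partner in the lists given further on. DCN was listed at 0 in 5 samples and at 2.82 FPKM in shCtr replicate 2. LUM, COL1A1, COL1A2, COL3A1 and PDGFRA were also at their shCtr highest in that sample, as were LOXL2, LOXL3 and LOXL4. PDGFRB and LOXL1 were at their shCtr lowest there, and LOX was between the other shCtr samples. Among leukocyte markers, PTPRC was near 0 and CD68, by far the most abundant, averaged 117 FPKM in shCtr against 81.7 in shZNF148 without overlap (log2 difference -0.52, SE 0.09, adjusted p = 0.023), under the 1.5-fold limit. LYZ rose from 0.627 to 3.18 FPKM (log2 difference 1.31, SE 0.25, adjusted p = 0.027). This call was lost at a pseudocount of 5 FPKM, with the replicate number as a block, without any 1 of the shCtr samples or without shZNF148 replicate 1. The part of these markers in the levels of the oxidases was not tested. In bulk samples, fewer cells of a type and less RNA per cell cannot be told apart. Summed FPKM was 469594 to 507312 per sample, and relative read depth ran from 0.806 to 1.13 of that of shCtr replicate 1. The number of reads behind a value is unknown.

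LOX and PLOD2 were lower by more than 1.5-fold in shZNF148, LOXL2 and LOXL4 were lower by less than that, and LOXL1, LOXL3, PLOD3 and the joined row of PLOD1 overlapped between groups. All shZNF148 values were thus below all shCtr values in 3 of 5 oxidases, LOX included, and in 1 of 3 hydroxylases, against 21.0% of all tested rows. PLOD1 was counted here by its row joined with MFN2. No member had all its shZNF148 values above its shCtr values. A row was called when its limma adjusted p was under 0.05 and its change exceeded 1.5-fold on the log2(FPKM + 1) scale, a scale that understates the change of genes at low levels. Of 7 members with a row above the filter of a mean of 1 FPKM, 2 were called lower and 0 higher. Over all 11777 tested rows, 431 (3.66%) were called lower and 216 (1.83%) higher. All shZNF148 values lay below all shCtr values for 4 of 8 members and above them for 0 of 8. Over all tested rows these shares were 21.0% below and 20.0% above. Because LOX in this same comparison chose the group, nothing is read from these counts. The median log2 difference was -0.45 over the 7 tested members and 0.0061 over all tested rows.

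**Figure D1:**
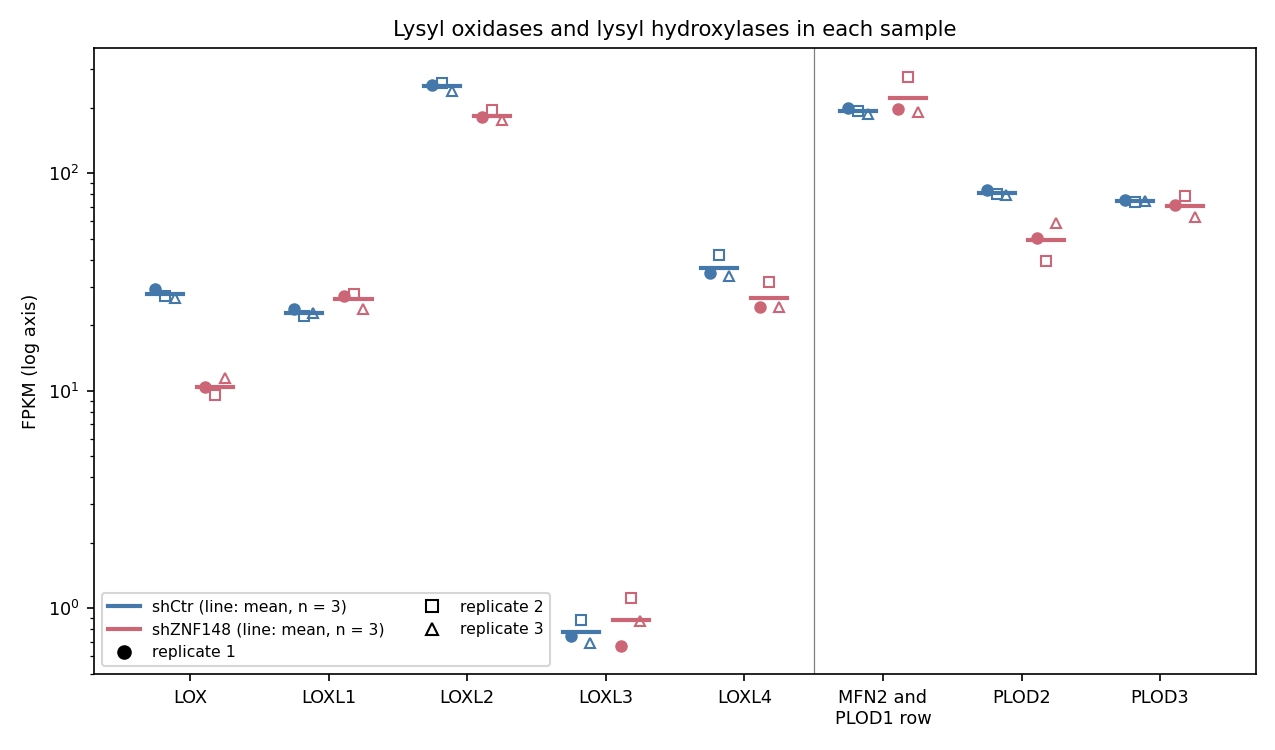
FPKM of each member (log axis) in every sample, with shCtr in blue, shZNF148 in red, 1 symbol per replicate and a line at the mean of n = 3. LOX and PLOD2 show the widest separation of the groups, LOXL2 and LOXL4 a narrower one, and the other 4 overlap, with LOXL3 near or below 1 FPKM throughout.

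LOX encodes the founding enzyme of the family, which is secreted as a proenzyme and cleaved outside the cell. Its gene (chromosome 5, 122063195 to 122078413, minus strand, GENCODE 44 on GRCh38) overlaps SRFBP1 on the opposite strand. LOX was 29.3, 27.1 and 26.6 FPKM in shCtr replicates 1, 2 and 3 and 10.4, 9.52 and 11.4 FPKM in shZNF148 replicates 1, 2 and 3. The samples of each group lay close together and far from the other group. The mean of 27.7 ± 1.41 FPKM in shCtr (SD, n = 3) stood against 10.4 ± 0.947 FPKM in shZNF148 (SD, n = 3), or 37.7% of the control level. The log2 difference was -1.33 (SE 0.08, 95% interval -1.53 to -1.12), which was the 106th lowest of 11777 rows. LOX was not a rare transcript, since its mean level exceeded that of 62.2% of tested rows. It met the call rule without any single replicate, with differences between -1.39 and -1.27. As LOX chose the group, this describes the fits and is no test of its lower level.

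LOXL1 is the relative most closely tied to elastin fibres. Its gene (chromosome 15, 73925989 to 73952137, plus strand) is overlapped by the antisense gene LOXL1-AS1. LOXL1 was 23.8, 22.0 and 22.7 FPKM in the 3 shCtr samples and 27.3, 27.8 and 23.6 FPKM in the 3 shZNF148 samples. The third shZNF148 sample fell within the shCtr range, so the groups overlapped. The log2 difference was 0.19 (SE 0.08, 95% interval -0.0048 to 0.39), and the row was not called. A second row named LOXL1 held 0.534 to 1.09 FPKM in shCtr and 1.03 to 1.79 FPKM in shZNF148, also overlapping.

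LOXL2, LOXL3 and LOXL4 carry scavenger receptor cysteine-rich domains in front of the oxidase domain, and LOXL2 is known to act on the type IV collagen of basement membranes. The LOXL2 gene (chromosome 8, 23296897 to 23425328, minus strand) is overlapped by ENTPD4 on its own strand and by LOXL2-AS1 on the other. It was the most abundant oxidase, at 254, 259 and 237 FPKM in shCtr and 180, 195 and 175 FPKM in shZNF148. All 3 shZNF148 samples were below all 3 shCtr samples. The mean went from 250 ± 11.6 to 183 ± 10.7 FPKM (SD, n = 3 each), 73.4% of control, with a log2 difference of -0.45 (SE 0.07, 95% interval -0.61 to -0.28) that stayed under the 1.5-fold limit.

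LOXL4 (chromosome 10, 98247690 to 98268194, minus strand) was 34.8, 41.8 and 33.5 FPKM in shCtr and 24.3, 31.5 and 24.3 FPKM in shZNF148. Replicate 2 was the highest sample of both groups, and the groups were separated by a gap smaller than the spread within either. The mean in shZNF148 was 72.8% of control, close to the proportion seen for LOXL2, with a log2 difference of -0.45 and a wider error (SE 0.13, 95% interval -0.76 to -0.14). LOXL3 (chromosome 2, 74532258 to 74555690, minus strand) was barely detected, at 0.749, 0.879 and 0.693 FPKM in shCtr and 0.672, 1.11 and 0.869 FPKM in shZNF148. It overlaps DOK1 and HTRA2 on the opposite strand, and its mean of 0.828 FPKM left it outside the test.

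**Figure D2:**
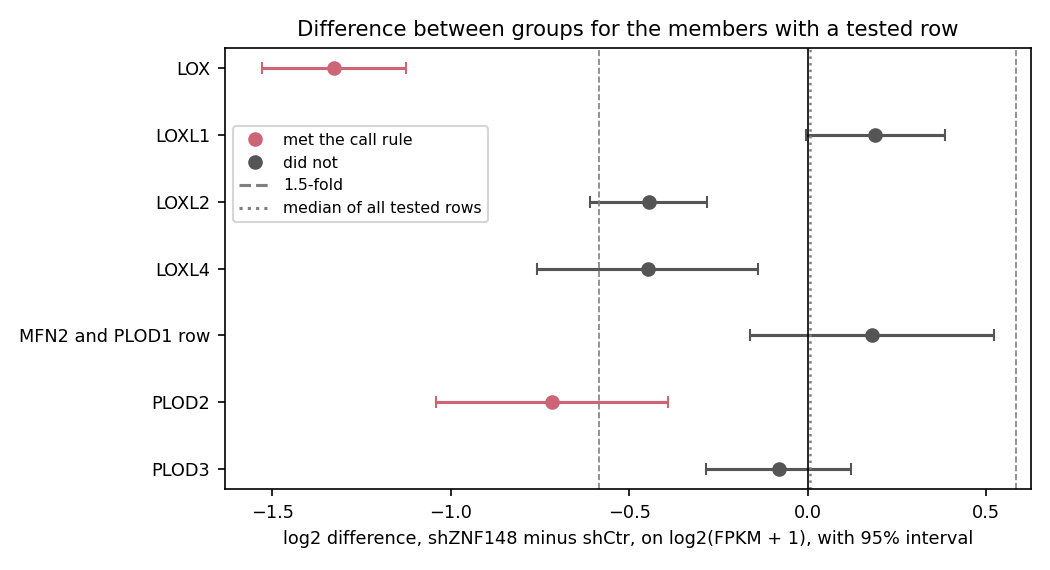
Log2 difference between shZNF148 and shCtr on the log2(FPKM + 1) scale for the 7 members with a tested row, with 95% intervals from the fit over all rows, the 1.5-fold limits dashed and the median of all tested rows dotted. LOX at -1.33 and PLOD2 at -0.72 lie beyond the 1.5-fold limit, and LOXL2 and LOXL4 both lie at -0.45. The intervals of LOXL1, of PLOD3 and of the joined row of MFN2 and PLOD1 cross 0.

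Since FPKM is per length, the 5 oxidases can be added within a sample to show how their mixture differed. The summed level was 343, 351 and 321 FPKM in shCtr and 243, 265 and 235 FPKM in shZNF148, or 338 ± 15.7 against 248 ± 15.8 FPKM (SD, n = 3 each). Of the difference of 90.3 FPKM, LOXL2 made up 73.8%, LOX 19.1% and LOXL4 11.1%, while LOXL1, with a higher mean, contributed -3.78%. In absolute transcript level, the abundant LOXL2 therefore accounted for more of the difference than LOX.

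The share of LOX in the sum was 8.54%, 7.73% and 8.30% in shCtr and 4.28%, 3.59% and 4.86% in shZNF148. The mean share was 8.19 ± 0.414% in shCtr and 4.24 ± 0.636% in shZNF148 (SD, n = 3 each), without overlap. LOXL1 took 6.76 ± 0.435% of the sum in shCtr and 10.6 ± 0.593% in shZNF148. LOXL2 held 74.0 ± 0.166% and 74.1 ± 0.383%, and LOXL4 10.8 ± 0.937% and 10.7 ± 0.992%, both with overlapping groups. LOX exceeded LOXL1 in every shCtr sample (ratio 1.21 ± 0.0358) and was below it in every shZNF148 sample (ratio 0.402 ± 0.0728). The ratio of LOXL2 to LOX was 9.05 ± 0.448 in shCtr and 17.7 ± 2.63 in shZNF148.

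**Figure D3:**
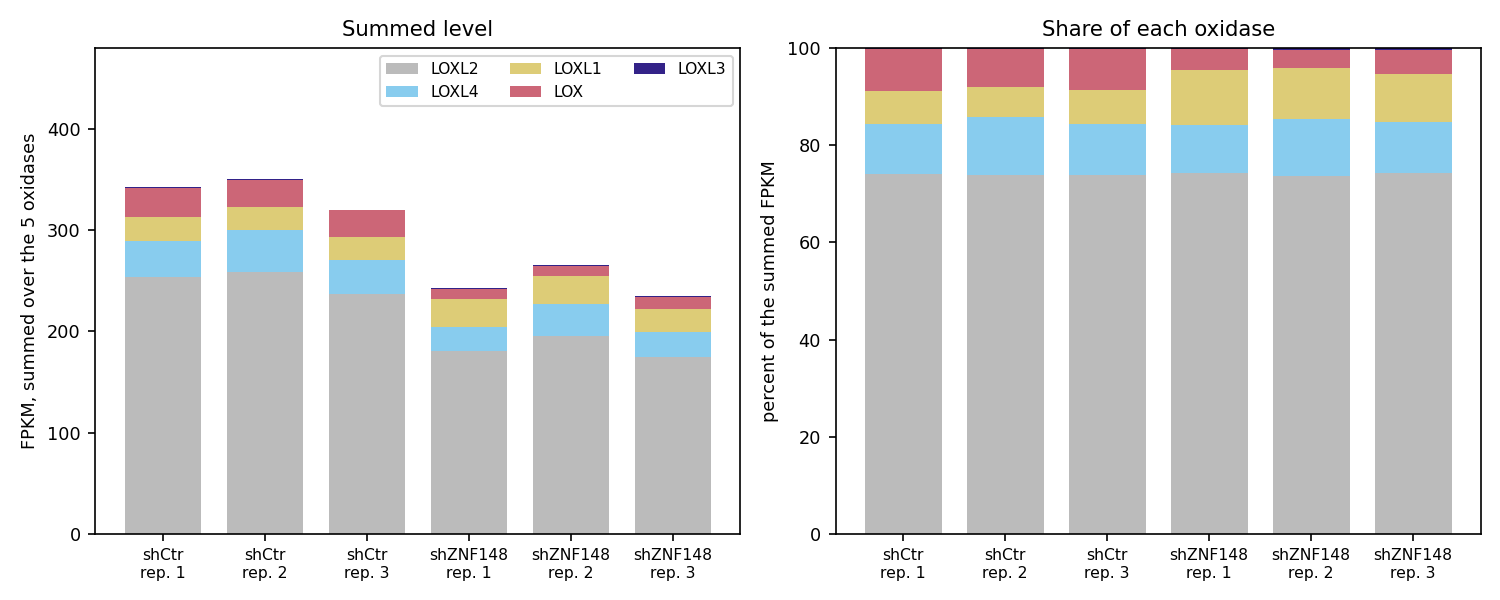
FPKM of the 5 lysyl oxidases stacked for each sample, summed on the left and as a percentage of the sum on the right. The sum falls between 321 and 351 FPKM in shCtr and between 235 and 265 FPKM in shZNF148, LOXL2 makes up about the same share in all 6 samples, and LOX takes a smaller share in each shZNF148 sample than in any shCtr sample.

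PLOD2 encodes the lysyl hydroxylase that acts on the telopeptides, the short non-helical ends of collagen chains. PLOD2 (chromosome 3, 146035139 to 146163725, minus strand) was 83.2, 80.2 and 79.3 FPKM in shCtr and 50.1, 39.6 and 58.7 FPKM in shZNF148. The shCtr samples nearly coincided and the shZNF148 samples were spread out, all of them lower. The mean was 80.9 ± 2.03 FPKM against 49.5 ± 9.61 FPKM (SD, n = 3 each), 61.1% of control, with a log2 difference of -0.72 (SE 0.14, 95% interval -1.04 to -0.39). PLOD2 met the call rule with all 6 samples and lost it when any replicate other than shZNF148 replicate 3 was left out, with differences between -0.85 and -0.57.

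PLOD3 encodes a hydroxylase that can also attach sugars to hydroxylysine. Its gene (chromosome 7, 101205977 to 101218420, minus strand) overlaps ZNHIT1 on the opposite strand. PLOD3 was 75.2, 73.7 and 74.6 FPKM in shCtr and 70.9, 78.1 and 62.9 FPKM in shZNF148. The shZNF148 samples lay on both sides of the shCtr samples, and the log2 difference was -0.08 (SE 0.09, 95% interval -0.28 to 0.12). The ratio of PLOD3 to PLOD2 was 0.921 ± 0.0181 in shCtr and 1.49 ± 0.456 in shZNF148 (SD, n = 3 each), and was above the shCtr range in all 3 shZNF148 samples.

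PLOD1, which hydroxylates lysines within the collagen helix, could not be read on its own. Its gene (chromosome 1, 11934205 to 11975538, plus strand) ends 4642 bases before the start of MFN2, a mitochondrial fusion gene on the same strand, and the deposited table gives a single value for both. The joined row held 199, 192 and 187 FPKM in shCtr and 197, 277 and 191 FPKM in shZNF148. The groups overlapped, with replicate 2 of shZNF148 far above the other 5 samples. The log2 difference of 0.18 (SE 0.14) became 0.0088 when that sample was left out.

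The order of levels within the group differed between the conditions. In shCtr the order was LOXL2, the joined MFN2 and PLOD1 row, PLOD2, PLOD3, LOXL4, LOX, LOXL1 and LOXL3, and no neighbours overlapped in range. In shZNF148, PLOD3 stood above PLOD2 and LOXL1 stood above LOX. There the ranges of LOXL2 and the joined row overlapped, as did those of LOXL4 and LOXL1.

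The members also differed in how the 3 shZNF148 samples were arranged. In shZNF148 replicate 2, which had the lowest ZNF148 level, LOX and PLOD2 were at their lowest and the other 6 members at their highest. Over all 11777 tested rows, that replicate was the highest of the 3 shZNF148 samples in 40.0% and the lowest in 38.7%. Across the 6 samples, the Pearson correlation of log2(FPKM + 1) with LOX was 0.95 for PLOD2, 0.94 for LOXL2, 0.78 for LOXL4 and -0.81 for LOXL1. These values describe 2 groups of 3 samples, so they mostly restate the difference between groups. The 5 rows outside the group most like LOX by this measure were ATHL1, OXSR1, RGMB, RNF169 and PCMTD2, at 0.997 to 0.999. A correlation of at least 0.9 with LOX was shared by 1067 tested rows.

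The stretches before the transcription start of LOX and PLOD2 are shown because these were the members called lower. Both are the 250 bases upstream of the start in RefSeq on GRCh38.p14, read on the gene's own minus strand, at chr5:122078260-122078509 for LOX and chr3:146161185-146161434 for PLOD2. Capitals mark matches to GGGAGGG, CCCCTCCCC and GGGCGGG, GC-rich words of the kind ZNF148 and SP1 bind, and to ACGTG, the core word bound by hypoxia-inducible factors, of which LOX and PLOD2 are known targets. Both strands were searched, and the complement of CCCCTCCCC holds GGGAGGG.
LOX: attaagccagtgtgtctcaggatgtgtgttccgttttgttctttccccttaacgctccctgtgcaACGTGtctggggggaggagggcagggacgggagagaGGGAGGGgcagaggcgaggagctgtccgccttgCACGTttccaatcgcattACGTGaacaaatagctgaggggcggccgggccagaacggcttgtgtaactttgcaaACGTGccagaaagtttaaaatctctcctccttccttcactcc
PLOD2: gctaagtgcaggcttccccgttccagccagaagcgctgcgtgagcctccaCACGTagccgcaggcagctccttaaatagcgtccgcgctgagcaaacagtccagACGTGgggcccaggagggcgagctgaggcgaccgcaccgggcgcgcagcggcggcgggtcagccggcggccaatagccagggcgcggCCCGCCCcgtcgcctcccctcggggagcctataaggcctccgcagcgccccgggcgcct
The LOX stretch held ACGTG 4 times, with first bases 185, 116, 98 and 42 before the start, and GGGAGGG 1 time. The PLOD2 stretch held ACGTG 2 times and GGGCGGG 1 time. Windows reaching 50 bases past the start were at hand for 7 members, all but LOXL2. ACGTG was absent from those of LOXL1, LOXL3, LOXL4, PLOD1 and PLOD3, where other forms of the core word were not searched for. Of these, LOXL3 held GGGAGGG 6 times and CCCCTCCCC 1 time, and LOXL4 held GGGCGGG 6 times and GGGAGGG 1 time. PLOD1 held GGGAGGG and GGGCGGG 2 times each, PLOD3 held them 1 and 3 times, and LOXL1 held none of the 4 words. LOX has 3 windows and LOXL3 has 2, and only the 1 at the start of the canonical transcript was read. Over 35116 promoter windows of the same length, ACGTG was found in 21.4%, GGGAGGG in 26.6%, GGGCGGG in 33.1% and CCCCTCCCC in 7.81%. These matches are letters, and no binding was measured in them here.

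The other genes of the cross-linking pathway were read from 5 lists holding 76 genes, of which 50 had a tested row. Among these, 7 fell and 0 rose by the call rule of limma, against 3.66% and 1.83% of all rows, and 43 were not called. At an unadjusted p under 0.05, 16 (32.0%) were lower and 14 (28.0%) higher, against 17.8% and 16.0% of all tested rows. The lists were chosen with earlier results of these data known. Their counts and the p-values of listed genes are therefore a description and no independent evidence. The number called lower depended on which sample was left out. It was 0 without shCtr replicate 1 or 3, 2 without shCtr replicate 2 or shZNF148 replicate 1, 8 without shZNF148 replicate 2 and 5 without shZNF148 replicate 3. Without replicate 2 of both groups it was 7, though not the same 7, since P3H3 was not called there and another listed gene was.

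Among 18 fibrillar, type IV collagen and elastin genes that serve as substrates, 7 were tested, 3 fell and 0 rose, with a median log2 difference of -0.42. At an unadjusted p under 0.05, 4 were lower and 2 higher. The 3 that fell were chains of type IV collagen, the network-forming collagen of basement membranes. COL4A1 was 25.4, 25.3 and 26.1 FPKM in shCtr and 14.9, 9.00 and 14.5 FPKM in shZNF148 (log2 difference -0.98, SE 0.18, adjusted p = 0.023). COL4A2 fell from 74.6 ± 2.75 to 45.0 ± 4.11 FPKM (log2 difference -0.72, SE 0.08, adjusted p = 0.010). COL4A5 fell from 1.98 ± 0.371 to 0.620 ± 0.336 FPKM (log2 difference -0.89, SE 0.20, adjusted p = 0.036). As for LOX and PLOD2, the lowest sample of all 3 chains was shZNF148 replicate 2, which was the lowest of its group in 38.7% of all tested rows. The COL4A5 call was lost at pseudocounts of 0.1 and 5 FPKM, and when any sample other than shZNF148 replicate 2 was left out. The COL4A1 call was lost without any 1 of the shCtr samples or without shZNF148 replicate 1. The COL4A2 call was lost without shCtr replicate 1 or 3. The tested fibrillar chains differed among themselves and none was called. COL5A1, the most abundant after COL4A2, averaged 44.3 ± 1.22 FPKM in shCtr against 61.6 ± 10.6 in shZNF148 (log2 difference 0.45, SE 0.12, limma adjusted p = 0.049), under the 1.5-fold limit. COL1A1 and COL1A2, whose products form type I collagen together, were named after their values were seen. COL1A1 was 5.06 ± 1.36 and 3.44 ± 0.226 FPKM (log2 difference -0.42, SE 0.16, adjusted p = 0.12), and COL1A2 was 6.80 ± 2.52 and 13.0 ± 3.61 FPKM (log2 difference 0.86, SE 0.26, adjusted p = 0.073).

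Of 20 extracellular partners and proteinases, 8 were tested, 1 fell and 0 rose, with a median log2 difference of -0.26. At that unadjusted threshold 5 were lower and 0 higher. EFEMP2, the fibulin that brings LOX to elastin precursors, fell from 4.40 ± 0.286 to 2.56 ± 0.0593 FPKM (log2 difference -0.60, SE 0.09, adjusted p = 0.017). This call was lost at a pseudocount of 5 FPKM (-0.31), with quantile normalization (-0.58), without any 1 of the shCtr samples and without shZNF148 replicate 1. The most abundant partners, the matrix glycoproteins THBS1 and FN1 and the latent TGF-beta binding protein LTBP4, had log2 differences of -0.23, -0.23 and -0.32 and were not called. BMP1, the main proteinase that cleaves the LOX proenzyme, was 14.2, 14.1 and 13.7 FPKM in shCtr and 13.8, 18.6 and 11.7 FPKM in shZNF148, with overlapping groups (log2 difference 0.04, SE 0.15).

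Of 6 genes that supply copper, all were tested and 0 were called in either direction, with 2 lower and 3 higher at an unadjusted p under 0.05 and a median log2 difference of 0.16. The copper transporters SLC31A1 and SLC31A2 were above their shCtr range in all shZNF148 samples. Their log2 differences were 0.42 (SE 0.08, limma adjusted p = 0.024) and 0.55 (SE 0.09, limma adjusted p = 0.018), under the 1.5-fold limit. ATOX1, the chaperone that hands copper to the secretory pathway, averaged 155 ± 9.99 FPKM in shCtr against 123 ± 8.75 in shZNF148, below its shCtr range (log2 difference -0.33, SE 0.08, limma adjusted p = 0.041). It too stayed under the 1.5-fold limit. CCS, the copper chaperone of superoxide dismutase, overlapped between groups (log2 difference 0.04, SE 0.13).

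Of 18 genes that modify or fold collagen in the endoplasmic reticulum, 16 were tested, 2 fell and 0 rose, with a median log2 difference of 0.18. At an unadjusted p under 0.05 the balance was the other way, with 3 lower and 6 higher. The 2 that fell were prolyl 3-hydroxylase genes, listed under the older symbols LEPREL1 and LEPREL2. P3H2, known to act on type IV collagen, fell from 22.4 ± 2.29 to 12.1 ± 2.56 FPKM (log2 difference -0.86, SE 0.16, adjusted p = 0.024). The P3H2 call was lost without any 1 of the shCtr samples or without shZNF148 replicate 1. P3H3, a partner of the PLOD1 product in lysine hydroxylation, fell from 2.45 ± 0.0730 to 1.02 ± 0.493 FPKM (log2 difference -0.81, SE 0.20, adjusted p = 0.045), a call lost without the filter on low values and at pseudocounts of 0.1 and 5 FPKM. This call was also lost when any sample other than shZNF148 replicate 2 was left out. Other prolyl hydroxylase genes, named after their values were seen, were above their shCtr range without being called: P3H1 averaged 62.7 FPKM in shCtr against 83.6 in shZNF148 (log2 difference 0.40, SE 0.12), and P4HA1 and P4HA2 had log2 differences of 0.42 and 0.38 (SE 0.12 each). The most abundant genes of the list were P4HB, PPIB and SERPINH1, a prolyl hydroxylase subunit, a prolyl isomerase and a collagen chaperone, and none was called. SERPINH1 was 166, 159 and 160 FPKM in shCtr and 175, 248 and 154 FPKM in shZNF148. Replicate 2 again stood above the other samples, as it did for 11 of the 16 genes within shZNF148. It was also the highest of its group in 6 of 8 tested partners, 5 of 6 copper genes, 7 of 13 oxygen-response genes and 3 of 7 substrates. Over all tested rows this share was 40.0%. The list summed to 1859 to 1933 FPKM in shCtr and to 1869 to 2375 FPKM in shZNF148.

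Of 14 genes of the oxygen response, which is known to act on LOX and PLOD2, 13 were tested, 1 fell and 0 rose, with a median log2 difference of 0.08. At the unadjusted threshold, 2 were lower and 3 higher. EPAS1, an alpha subunit of the hypoxia-inducible factors, was 14.3, 15.4 and 12.2 FPKM in shCtr and 7.84, 7.70 and 7.74 FPKM in shZNF148 (log2 difference -0.77, SE 0.10, adjusted p = 0.011), a call lost at a pseudocount of 5 FPKM (-0.57) and without shCtr replicate 1 or 3. HIF1A, the better known alpha subunit, averaged 117 ± 3.22 FPKM in shCtr against 100.4 ± 15.0 in shZNF148, with overlapping groups (log2 difference -0.23, SE 0.11). NDRG1 and BNIP3, both known hypoxia targets, had log2 differences of -0.51 (SE 0.10) and -0.11 (SE 0.09) and were not called. The genes named here are the called gene and the 3 most abundant, and all have negative differences. Of the 13 tested genes, 5 had a negative and 8 a positive log2 difference.

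**Figure D4:**
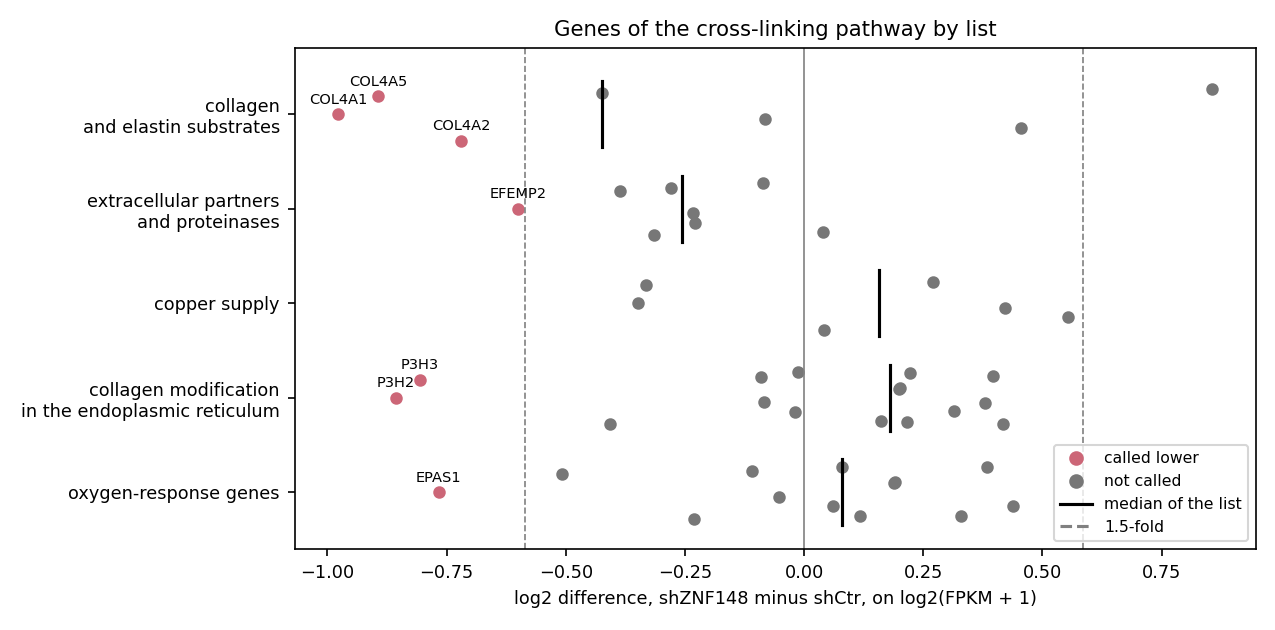
Log2 differences between shZNF148 and shCtr of the 50 tested genes in 5 lists of the cross-linking pathway, with called genes in red and named, list medians as black bars and the 1.5-fold limits dashed. All 7 called genes lie on the lower side, 3 of them chains of type IV collagen, and the medians run from -0.42 for substrates to 0.18 for collagen modification.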

How the data were processed

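The 6 samples were grouped by their labels. The authors deposited 1 table of FPKM values, 24108 rows by 6 samples, and 0 columns were left unused. The submitters' processing notes name bcl2fastq 2.17.1.14, TopHat2 2.0.14, Cufflinks 2.2.1 and Cuffnorm 2.2.1 with hg18 and hg19, whereas the paper's methods name Salmon and GRCh38. Which of these made the values is not settled by the sources used here. The table holds no coordinates, and positions come from GENCODE 44. Joined rows, 733 in all, carry several symbols and 1 value. Whether the library kept strand is not given in the sources used here, so reads from overlapping genes on opposite strands may be shared.

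The 11777 rows whose mean reached 1 FPKM were fitted as log2(FPKM + 1) with limma 3.58.1 (R 4.3.3), group as the only term, eBayes with a variance trend, and Benjamini-Hochberg adjustment over all 11777 rows. Calls needed an adjusted p under 0.05 and over 1.5-fold. The fit was tested on simulated data. The members and gene lists were chosen with earlier results of these data known. The text names ZNF148, all members (for a repeated symbol, the row with the highest mean), markers, called list genes, the 3 most abundant genes of each list and the 5 rows most like LOX. COL1A1, COL1A2, BMP1, SLC31A1, P3H1, P4HA1 and P4HA2 were named after their values were seen. Read counts could not be taken from FPKM, so no count test was run, and precision at low levels is unknown. Alternatives covered the filter, pseudocount, scaling, variance model, summed rows, replicate block and leaving out samples. Protein identities among the members were not analysed here.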

Additional observations from a re-analysis of the deposited data

How the results depend on the processing

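LOX was lower and called under all 16 alternatives, from -1.40 to -1.08 on the log2 scale, the last with a pseudocount of 5 FPKM. Since LOX was chosen as lower in these same samples, this describes the settings only. PLOD2 was lower under all 16 and called under 9. It lost the call with the replicate block, without replicate 2 of both groups and in 5 of 6 fits that left out 1 sample. LOXL2 ranged from -0.49 to -0.36 (quantile normalization), and LOXL1, LOXL4, PLOD3 and the joined PLOD1 row kept their direction and were called under none. The share of LOX was 9.97% in shCtr and 5.41% in shZNF148 when divided by LOX plus LOXL2 alone.

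Samples with the same number, each taken relative to its group mean, correlated at -0.0881 to 0.0304, and no shCtr sample correlated best with its own number. The main fit therefore did not pair the samples by number. These correlations over all tested rows cannot settle whether equal numbers mark samples handled together, which the labels do not state. In some rows, such as LOXL4 and the joined row of ERBB2, replicate 2 was the highest sample of both groups. With the replicate block, 216 rows were called lower and 99 higher, 1 member was called lower, and of the listed genes 3 were called lower (COL4A1, COL4A2 and EPAS1) and 1 higher (COL1A2). The block ended the calls of COL4A5 (adjusted p = 0.057), EFEMP2 (0.059), P3H2 (0.064) and P3H3 (0.079), and that of the marker LYZ (0.063). A pseudocount of 5 FPKM gave 204 rows lower, 76 higher and 3 listed genes lower, and a mean of at least 5 FPKM gave 4 listed genes lower. Leaving out 1 sample gave 19 to 393 rows called lower and 3 to 209 higher, 1 to 2 members, and 0 to 8 listed genes lower and 0 to 1 higher (SLC31A2). Rows called lower were 26 and 19 without shCtr replicates 1 and 3, 142 without shCtr replicate 2 and 206 without shZNF148 replicate 1, and rows called higher were 3, 3, 59 and 64 in that order. Leaving out replicate 2 of both groups, an alternative chosen after seeing the data, gave 342 rows lower and 185 higher, 1 member called lower, and 7 listed genes lower and 1 higher (COL1A2). P3H3 was not among those 7. Counts of calls therefore followed which samples were left out, for which the cause was not tested. Precision is limited by 3 samples a group and an unknown read number.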
